A study of Mus musculus with 2 samples.

Results

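The genes described here encode 10 subunits of the nicotinic acetylcholine receptor, 5 of the neuronal type (Chrna3, Chrna5, Chrna7, Chrnb2 and Chrnb4) and 5 of the muscle type (Chrna1, Chrnb1, Chrnd, Chrng and Chrne). They were chosen by gene symbol, and all 10 of 10 were found among the 55536 GENCODE genes of the deposited gene tables. Total RNA was sequenced from adrenal glands of 14-day-old females of the F1 hybrid mouse strain B6CASTF1/J. The labels give 1 group of 2 libraries, replicate 1 and replicate 2, each made from 300 ng of RNA with reduced ribosomal RNA and ERCC spike-ins, and they name no treatment. The labels number them as biological replicates but give both the same donor identifier, and the library descriptions of both speak of 3 females. The tissue label of replicate 1 does so too, while that of replicate 2 has a single numbered female. Whether the libraries came from separate animals was therefore not settled, and p-values measure only the difference between these 2 libraries.

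Nicotinic receptors are ion channels built of 5 subunits around a pore that opens when acetylcholine binds. In skeletal muscle the receptor combines the products of Chrna1, Chrnb1 and Chrnd with that of Chrng in fetal and denervated muscle or of Chrne in adult muscle, and it is clustered under the motor nerve ending. Ganglion neurons and the chromaffin cells of the adrenal medulla use receptors in which the products of Chrna3 and Chrnb4 are the core, Chrna5 and Chrnb2 products join as further subunits, and Chrna7 products form a separate channel. In the adrenal gland, acetylcholine from the splanchnic nerve acts on these receptors to release catecholamines.

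The libraries held 37586172 (replicate 1) and 33844950 (replicate 2) expected counts. Markers of adrenal cortex (6 of 7 lower in replicate 2, summed level 4409 and 1820 TPM in replicates 1 and 2) and of chromaffin cells (11 of 14 lower, 1634 and 758 TPM) were high in both libraries, with no member of either list at 0. TPM is the level per length, relative to all transcripts of the library. Markers of other tissues were present as well. Brown and white fat markers summed to 2204 and 2454 TPM (5 of 5 higher in replicate 2), above chromaffin cell markers in both libraries. Skeletal muscle markers summed to 30.6 and 660 TPM (15 of 15 tested genes higher in replicate 2), hepatocyte markers to 326 and 18807 TPM (8 of 8 higher), and thymocyte markers to 35.3 and 0.890 TPM (7 of 7 tested genes lower). A gene was called higher or lower at an adjusted p under 0.05 in an exact conditional binomial test on counts scaled with edgeR's TMM, which covers counting error only and compares these 2 libraries. Of 16137 genes tested, 53.2% were called, 28.5% higher and 24.6% lower in replicate 2. TMM centred the median tested gene at -0.002 on the log2 scale. Scaling by total counts moved that median to -0.34 and by spike-ins to -0.28, and the share of calls that were higher fell from 53.6% to 19.4% and 22.9%.

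Among the 10 genes, those of the neuronal type held most of the summed level in both libraries. Their summed level was 14.25 TPM in replicate 1 and 7.45 TPM in replicate 2, against 0.640 and 1.26 TPM for the muscle type. The neuronal type thus took 95.7% and 85.5% of the TPM summed over the 10 genes (90.6% ± 7.19, SD, n = 2), and 95.4% and 87.4% in the second transcript table, which the authors deposited as a separate quantification of each library. The genes stood in the order Chrna7, Chrna3, Chrnb4, Chrnb2 and Chrna5 in both libraries and in both tables.

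**Figure D1:**
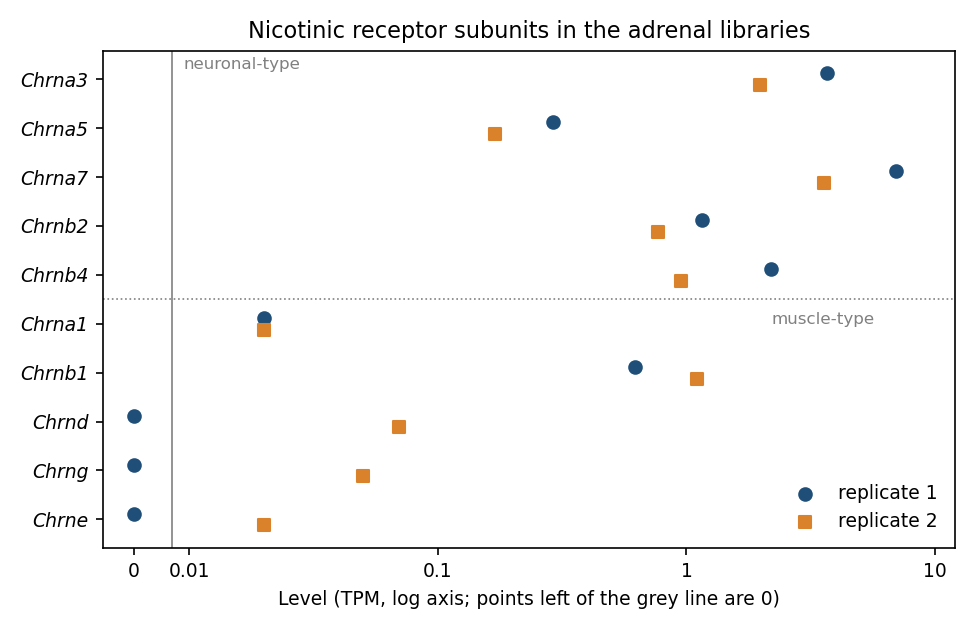
Level of each subunit gene in TPM (log axis, with values of 0 left of the grey line) in replicate 1 (circles) and replicate 2 (squares). All 5 neuronal-type genes lie higher in replicate 1, between 0.29 and 6.96 TPM there, while of the muscle type only Chrnb1 exceeds 0.1 TPM.

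Chrna7, whose product forms the homomeric receptor with high calcium permeability, was the most abundant member at 6.96 TPM (484 counts) in replicate 1 and 3.58 TPM (238 counts) in replicate 2, or 5.27 ± 2.39 TPM (SD, n = 2). Chrna3, the acetylcholine-binding subunit of the ganglionic receptor, had 3.67 TPM (453 counts) and 1.98 TPM (231 counts), or 2.83 ± 1.20 TPM (SD, n = 2). Chrnb4, its partner subunit, had 2.18 TPM (273 counts) and 0.950 TPM (114 counts), or 1.57 ± 0.870 TPM (SD, n = 2). Each of these 3 genes was higher in replicate 1. The ranges of neighbours in the order overlapped across libraries (Chrna7 with Chrna3, Chrna3 with Chrnb4, and Chrnb4 with Chrnb2), so their order was seen within each library and not across them.

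Chrnb2, the beta subunit best known from brain receptors, had 1.15 TPM (244 counts) and 0.770 TPM (155 counts), or 0.960 ± 0.269 TPM (SD, n = 2). Chrna5, an accessory subunit that does not form a receptor without other alpha subunits, had 0.290 TPM (22 counts) and 0.170 TPM (11 counts), or 0.230 ± 0.0849 TPM (SD, n = 2). It lay below the other neuronal-type members in both libraries without overlap, and its 11 to 22 counts leave it the least precisely measured of them. Among all protein-coding genes, Chrna7 stood above 66.8% and 58.1% in level, and Chrna5 above 35.97% and 33.2%.

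Ratios between subunits within a library do not depend on how the libraries are scaled. In replicate 1 Chrna3 exceeded Chrnb4 1.68-fold, and in replicate 2 it did so 2.08-fold (log2 0.91 ± 0.22, SD, n = 2). Chrna7 exceeded Chrna3 1.90-fold and 1.81-fold (log2 0.89 ± 0.05, SD, n = 2), and Chrna5 lay 12.7-fold and 11.6-fold below Chrna3 (log2 -3.60 ± 0.08, SD, n = 2). The ratio of Chrnb2 to Chrnb4 varied more, at 0.528 and 0.811 (log2 -0.61 ± 0.44, SD, n = 2). Th, which encodes the rate-limiting enzyme of catecholamine synthesis, exceeded Chrna3 47.4-fold and 33.1-fold. No test was made of these ratios, because 2 libraries are too few for an exact one.

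Chrna3, Chrna5 and Chrnb4 lie side by side on chromosome 9 (mm10), a cluster conserved among mammals. Chrna7 lies on chromosome 7 (63098692 to 63212569, minus strand) and Chrnb2 on chromosome 3 (89746195 to 89764632, minus strand). Chrna5 runs on the plus strand from 54980880 to 55007779, Chrna3 on the minus strand from 55010111 to 55026562, and Chrnb4 on the minus strand from 55028154 to 55048779. The gaps are 2331 bases between the 3' ends of Chrna5 and Chrna3 and 1591 bases between Chrna3 and Chrnb4, and no exons overlap. The TPM of Chrna5 was 0.0790 and 0.0859 of that of Chrna3. The neighbour on the Chrna5 side, Psma4, which encodes a proteasome subunit, stood at 60.2 and 48.95 TPM and was called higher in replicate 2 (log2 0.13, adjusted p = 0.0141, exact binomial test), and Ube2q2, on the Chrnb4 side, was not called (log2 -0.13, adjusted p = 0.0902, exact binomial test).

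Of the 10 members, 5 had a mean count of at least 20 and were tested between the libraries. Of these, 3 were lower in replicate 2, 0 were higher and 2 were not called, beside 24.6% and 28.5% of all tested genes called lower and higher. Chrnb4 was 1.70-fold lower in replicate 2 (log2 -0.77, 95% interval -1.10 to -0.45, adjusted p = 4.05e-06, exact binomial test). Chrna7 was 1.45-fold lower (log2 -0.53, -0.76 to -0.31, adjusted p = 8.71e-06, exact binomial test) and Chrna3 1.39-fold lower (log2 -0.48, -0.72 to -0.25, adjusted p = 0.000106, exact binomial test). Chrnb2 was not called (log2 -0.16, -0.46 to 0.13, adjusted p = 0.391, exact binomial test), but was called lower under total-count scaling (log2 -0.50, adjusted p = 0.00126, exact binomial test) and spike-in scaling (log2 -0.44, adjusted p = 0.00564, exact binomial test). Chrna5, too low to be tested, had a log2 difference of -0.48 with an interval of -1.70 to 0.60.

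The median over the 4 tested neuronal-type genes was -0.51, beside -0.002 for all genes tested. Of all genes tested, 28.5% were called higher and 24.6% lower in replicate 2. Chromaffin cell markers had a median of -0.68, with Th at -0.99, Chga, which encodes a granule protein, at -0.68, and Phox2a, a transcription factor of the lineage, at -0.38. Adrenal cortex markers had a median of -0.84 (6 of 7 lower), so lower levels in replicate 2 were not particular to chromaffin cell markers. Of the 12 neuron and ganglion markers, 3 were higher, 3 lower and 6 not called, which is near the shares of all genes tested. Prph, which encodes the peripheral neuron filament peripherin, was higher (1.03) and Snap25, a release machinery gene, lower (-0.68). Macrophages also use Chrna7, and macrophage markers were higher in 5 of 6 (median 1.09, summed level 26.6 and 39.4 TPM). In bulk tissue, fewer cells of a type and less RNA per cell cannot be told apart, and the part of each cell type in the subunit differences was not tested.

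**Figure D2:**
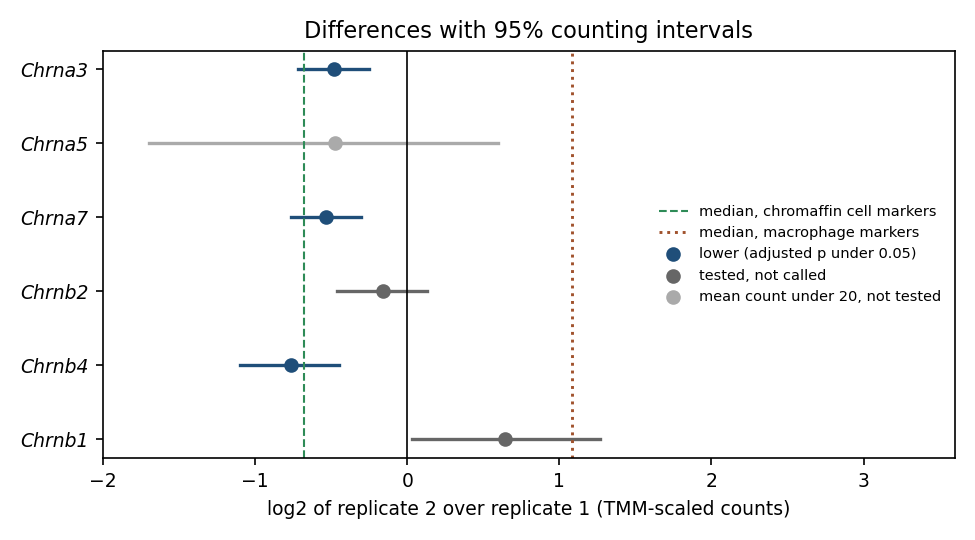
Log2 difference of replicate 2 over replicate 1 (horizontal axis) for the 6 subunit genes with over 3 counts in each library, with 95% counting intervals as bars. With the TMM scaling drawn, Chrna3, Chrna7 and Chrnb4 lie wholly below 0, Chrna5 and Chrnb2 reach across it, and Chrnb1 lies above it. Vertical lines mark the medians of chromaffin cell markers (dashed, -0.68) and macrophage markers (dotted, 1.09). The median of adrenal cortex markers, -0.84, is not drawn.

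Muscle-type subunits were near the limit of detection except Chrnb1. Chrna1, the acetylcholine-binding subunit of muscle (chromosome 2, 73563215 to 73580338, minus strand), had 3 counts in each library, or 0.0200 TPM. Chrng, the fetal subunit, had 0 and 2 counts. Chrne, the adult subunit that replaces it after birth, had 0 and 1, and Chrnd, a subunit of both forms, 0 and 1. A count of 0 allows up to 3 counts, which in replicate 1 is a level of up to 0.0425 TPM for Chrnd, 0.0754 TPM for Chrng and 0.0874 TPM for Chrne. In the gene table all 4 genes were thus at or below 3 counts in both libraries. Chrna1 had 9.59 and 9.88 estimated counts in the second transcript table. Whether Chrng or Chrne prevailed was not detectable at this depth. In the first transcript table, the single Chrnd count of replicate 2 was assigned to Chrnd-203, a retained-intron transcript, and none to a coding transcript. In the second, replicate 1 had 1.05 estimated counts on the coding Chrnd-201. Chrnd (87190607 to 87200070) and Chrng (87204657 to 87212694) are neighbours on the plus strand of chromosome 1, 4586 bases apart, and Chrne lies on chromosome 11 (70614883 to 70619216, minus strand).

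Chrnb1, the beta subunit of muscle (chromosome 11, 69784036 to 69795943, minus strand), was the exception, with 44 counts (0.620 TPM) in replicate 1 and 49 counts (1.10 TPM) in replicate 2, or 0.860 ± 0.339 TPM (SD, n = 2). This range overlapped that of Chrnb2 (0.770 to 1.15 TPM) and lay above that of Chrna5. Chrnb1 took 96.9% and 87.3% of the muscle-type TPM. In the second table Chrnb1 stood at 0.712 and 1.01 TPM and Chrna1 at 0.0738 and 0.0871 TPM, against 0.0200 TPM for Chrna1 in the gene table, so the ratio of these genes depends on the table. Chrnb1 was not called between the libraries (log2 0.64, 95% interval 0.03 to 1.27, adjusted p = 0.0716, exact binomial test). Its log2 difference was 0.30 under total-count scaling (adjusted p = 0.407, exact binomial test) and 0.37 under spike-in scaling (adjusted p = 0.310, exact binomial test). The larger gap in TPM than in counts goes with the transcripts assigned: all counts of replicate 1 went to the coding Chrnb1-201, whereas replicate 2 had 41.9 there and 7.15 on shorter noncoding transcripts. The coding transcript alone stood at 0.620 TPM in both libraries in the first transcript table, but at 0.712 and 0.840 TPM in the second. There, the noncoding counts of replicate 2 were 2.03, all on Chrnb1-204.

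Skeletal muscle markers were higher in replicate 2, over a wide range of sizes, while 4 of the muscle-type subunits had too few counts to limit their own difference. Acta1, the skeletal muscle actin gene, had 314 and 7654 counts and was 34.2-fold higher in replicate 2 (95% interval 30.6 to 38.5). Myh1, a fast myosin heavy chain gene, had 43 and 9967 counts (322-fold, 242 to 450), and Ckm, the muscle creatine kinase gene, 129 and 2108 (22.9-fold, 19.2 to 27.6). Chrna1 had the same 3 counts beside each of these. The interval of the Chrna1 difference ran from -2.41 to 3.39 on the log2 scale. Myh4, another fast myosin gene, had 553 and 735 counts (log2 0.90), the smallest difference of the 15 tested muscle markers. Their median was 4.91. Chrnb1, at 0.64, lay below all 15 and was not called. The 4 subunit genes other than Chrnb1 summed to 3 and 7 counts, against 1663 and 35405 for the 16 muscle markers.

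**Figure D3:**
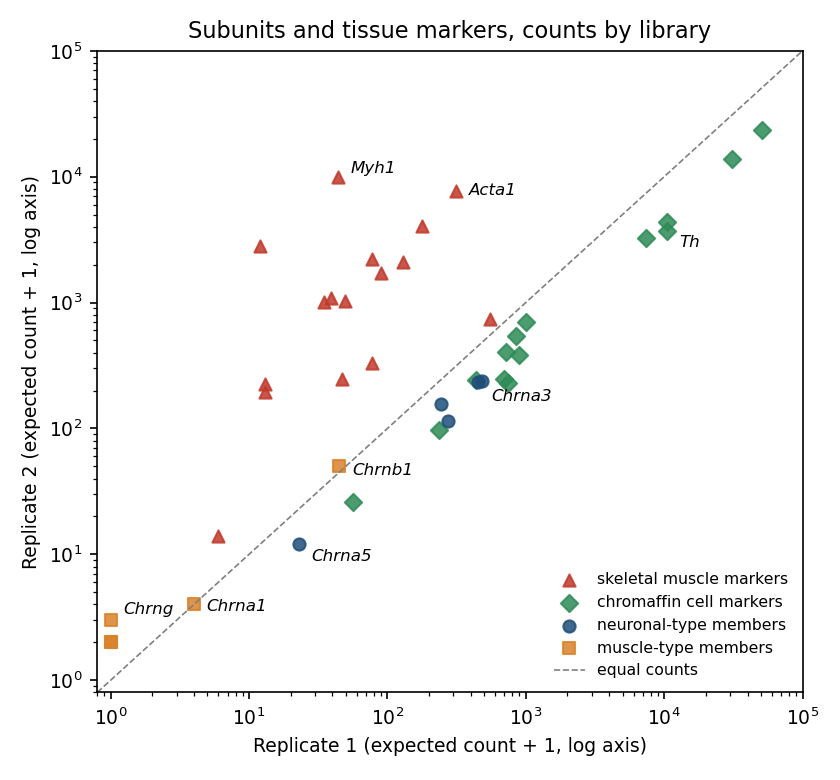
Expected counts plus 1 in replicate 1 (horizontal) and replicate 2 (vertical), both on log axes, for the subunits and 2 marker lists, with the dashed line at equal counts. Skeletal muscle markers lie above the line, up to 9967 counts for Myh1, while Chrna1, Chrnd, Chrng and Chrne stay at 3 counts or fewer. Neuronal-type subunits and chromaffin cell markers lie below the line. Counts are unscaled here, and by TMM an unchanged gene also lies below the line, at -0.49 on the log2 scale.

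Genes of the neuromuscular postsynapse, where the muscle receptor sits, differed in direction. Of 8 tested, 3 were higher in replicate 2, 4 lower and 1 not called (median 0.05, beside -0.002 for all genes, of which 28.5% were higher and 24.6% lower). Rapsn, whose product anchors the receptor, had 20 and 21 counts and was not called (log2 0.56, adjusted p = 0.374, exact binomial test), and Musk, the receptor kinase that organises the synapse, had 16 and 19 counts and was not tested. Lrp4, the agrin receptor gene, was higher (log2 1.28), as was Agrn (0.35), while Dok7, which encodes an activator of MuSK, was lower (-0.61). Skeletal muscle markers, beside these, summed to 30.6 and 660 TPM. Of the myogenic factor genes, Myf6, a factor of differentiating and mature fibres, had 0 and 22 counts, and Myog, whose product activates subunit genes in immature or denervated muscle, had 1 and 14 counts (log2 3.76, 95% interval 1.58 to 9.70). Myod1 and Pax7 had 0 and 2 counts each, and Myf5 had 0 in both. Mef2c, which is also expressed in many other tissues and was the member of this list with enough counts to test, had 1715 and 1205 counts and was not called (log2 -0.02, adjusted p = 0.817, exact binomial test).

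Start-site windows were read for members of both types. They come from RefSeq (GRCm38.p6, the assembly also called mm10), which held an entry for 9 of the 10 members. Each was read over the 250 bases before the start site on the gene's strand, and bases in annotated exons were left out of what is printed. The window of Chrng lies inside the gene, just upstream of Chrng-201, 1 of its 5 transcripts. Capitals mark the E-box CAGCTG, a site bound by myogenic and proneural factors, its variant CACCTG, the N-box CCGGAA described in synapse-specific muscle genes, the GC box GGGCGG bound by Sp1, and TATAAA, searched on both strands, where CACCTG also reads CAGGTG and GGGCGG reads CCGCCC. No match of 1 motif overlapped a match of another, and 2 GC boxes of Chrnb1 overlap by 1 base. The printed stretch of Chrnb1 holds 3 of its 4 GC boxes, since the rest of its window lies in exons of Fgf11 and Chrnb1. For the muscle type, the printed windows are Chrna1 (chr2:73580339-73580588, minus strand), Chrng (chr1:87205561-87205809, plus strand), Chrne (chr11:70619217-70619444, minus strand) and Chrnb1 (chr11:69795944-69796067, minus strand). For the neuronal type they are Chrna3 (chr9:55026563-55026812, minus strand) and Chrna7 (chr7:63212570-63212776, minus strand). Those of Chrna5, Chrnb2 and Chrnb4 were read but are not printed, and their matches are given below.

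Chrna1: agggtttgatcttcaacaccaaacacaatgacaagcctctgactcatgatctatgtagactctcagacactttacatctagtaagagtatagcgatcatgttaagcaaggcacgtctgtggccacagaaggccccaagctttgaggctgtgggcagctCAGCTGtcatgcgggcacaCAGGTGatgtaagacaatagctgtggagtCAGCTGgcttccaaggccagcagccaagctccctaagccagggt
Chrng: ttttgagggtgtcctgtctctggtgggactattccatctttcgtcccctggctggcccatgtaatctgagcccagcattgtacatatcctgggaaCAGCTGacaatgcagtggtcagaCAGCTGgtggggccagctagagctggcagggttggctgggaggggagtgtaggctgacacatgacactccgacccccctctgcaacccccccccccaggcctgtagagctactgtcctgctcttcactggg
Chrne: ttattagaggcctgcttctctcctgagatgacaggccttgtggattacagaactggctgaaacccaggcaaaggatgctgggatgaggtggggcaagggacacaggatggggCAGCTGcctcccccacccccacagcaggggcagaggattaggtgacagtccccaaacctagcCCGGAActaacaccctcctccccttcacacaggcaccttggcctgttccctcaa
Chrnb1: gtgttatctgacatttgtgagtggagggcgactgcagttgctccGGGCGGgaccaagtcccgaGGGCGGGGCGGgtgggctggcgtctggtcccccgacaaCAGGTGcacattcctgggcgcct
Chrna3: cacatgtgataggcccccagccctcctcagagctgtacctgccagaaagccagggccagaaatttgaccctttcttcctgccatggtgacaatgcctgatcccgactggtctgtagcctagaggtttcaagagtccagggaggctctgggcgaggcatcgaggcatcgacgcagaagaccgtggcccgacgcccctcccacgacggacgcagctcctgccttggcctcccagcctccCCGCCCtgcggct
Chrna7: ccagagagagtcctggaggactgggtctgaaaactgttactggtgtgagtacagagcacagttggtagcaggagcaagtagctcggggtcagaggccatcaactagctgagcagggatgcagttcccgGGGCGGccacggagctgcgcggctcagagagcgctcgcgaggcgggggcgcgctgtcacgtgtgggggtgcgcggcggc

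CAGCTG was present in 13% of 32851 mouse windows of this length, and in 1.26% at least 2 times. It occurred 2 times in the window of Chrna1, 2 times in that of Chrng and 1 time in that of Chrne. The window of Chrnb1 had no CAGCTG, 4 GC boxes and 1 TATAAA. Of all windows, 16.7% had at least 2 GC boxes and 12.4% had TATAAA. The window of Chrnb1 is 60.4% G and C, beside 59.2% for Chrng, 56.8% for Chrne and 50.8% for Chrna1. The TATAAA of Chrnb1 reads TTTATA on the gene's strand, 144 bases before the start site. It lies in exon sequence of Fgf11, outside the printed stretch. Among the neuronal type, Chrnb4 had 1 CAGCTG, in the 235 bases of its window that belong to a Chrnb4 exon, while Chrna3, Chrna7, Chrnb2 and both windows of Chrna5 had none. The variant CACCTG, in 17.2% of windows, occurred 1 time each in Chrna1, Chrnb1 and Chrnb4 and 2 times in 1 window of Chrna5, genes of both types and of high and low counts. CCGGAA, in 12% of windows, was found in that of Chrne and in no other member's. GC boxes, in 32.7% of windows, were found in those of Chrna3 and Chrna7 (1 each), 1 of the 2 of Chrna5 (4) and Chrnb1. These are matches of letters and say nothing of binding in this tissue. Whether they bear on the level of any member was not tested.

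Transcript shares of Chrna7 differed by under 1 percentage point between the libraries in each table. Those of Chrna3 depended on the table and, in the second, on the library, while those of Chrnb2 differed between the libraries in both. The coding Chrna7-201 took 95.8% and 95.02% of its gene's TPM in replicates 1 and 2 (93.1% and 92.7% in the second table), and Chrna3-201 took 64.2% and 63.3% (83.4% and 72.9% in the second table), the rest going to Chrna3-202, also coding. Of Chrnb2, the noncoding Chrnb2-202 took 41.6% in replicate 1 and 0.05% in replicate 2, and 30.9% and 0% in the second table. Chrnb2-202 shares 6109 of its 6145 bases with the coding Chrnb2-201, and only 36 bases are its own, against 290 for Chrnb2-201. The count of Chrnb2-201 alone was 142 and 149. For Chrna5, Chrna5-204 took 73.8% and 38.6%, on the 22 and 11 counts of that gene.

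**Figure D4:**
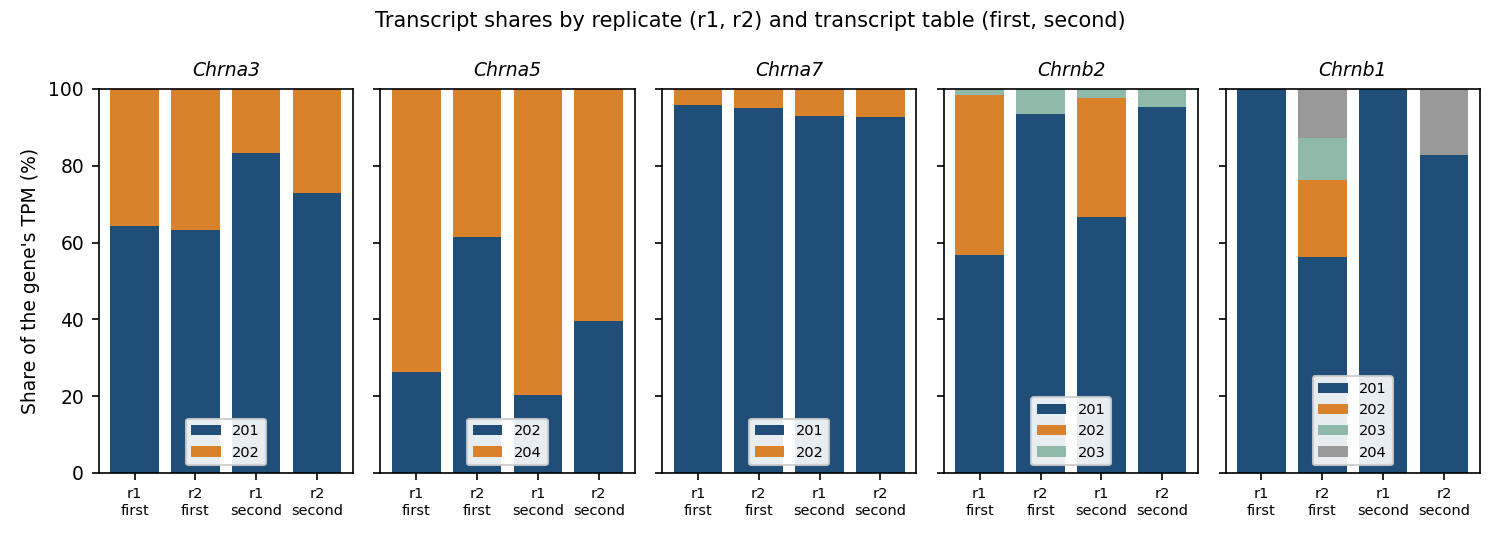
Share of each gene's TPM by transcript (stacked bars, in percent, from 0 to 100) in replicate 1 (r1) and replicate 2 (r2), from the first and second transcript tables. Chrna7 and Chrna3 keep a leading transcript in all 4 bars, while Chrnb2-202 is present in replicate 1 (41.6% and 30.9%) and at or near 0 in replicate 2.

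Reads of the subunits could be told from those of other genes over most of their length. None of the 31-base words of Chrna7, Chrng or Chrne occurred in transcripts of another gene on either strand, and for Chrna3, Chrna5, Chrnb1 and Chrnd under 1% did on the same strand. The share was 2.31% for Chrnb4 and 3.98% for Chrna1, which had 9.59 and 9.88 estimated counts in the second table against 3 expected counts in the gene table. Exons of Chrnb2 overlap 1365 bases of Adar, an RNA editing enzyme gene on the other strand, and 15.0% of the words of Chrnb2 match Adar there. Adar had 1047 and 629 counts, and whether counting used strand is not given in the sources used here, so the split of reads in the shared stretch is uncertain. Fgf11, a growth factor gene on the same strand, ends 124 bases upstream of Chrnb1 and had 86 and 68 counts.

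The 6 other nicotinic subunit genes were led by Chrna4, which with Chrnb2 forms the main receptor of brain. It had 530 and 335 counts, or 3.50 and 2.28 TPM, beside 3.67 and 1.98 TPM for Chrna3, and was not called (log2 -0.17, 95% interval -0.37 to 0.03, adjusted p = 0.152, exact binomial test). It took 17.9% and 20.2% of the TPM over the 16 subunit genes, and the 10 members took 76.3% and 77.0%. Chrna2, whose transcripts share a short stretch with Chrna4, had 6 and 36 counts and was higher in replicate 2 (7.89-fold, 3.52 to 24.5, adjusted p = 4.04e-08, exact binomial test), beside hepatocyte markers at 326 and 18807 TPM. Chrna9, a subunit of hair cells and some lymphocytes, had 21 and 0 counts, too few to test, beside thymocyte markers at 35.3 and 0.890 TPM. Skeletal muscle and fat markers were also higher in replicate 2, and the part of any tissue in either gene was not tested. Chrna6 had 0 counts in both libraries and Chrna10 had 1 and 0. Chrnb3 had 0 in both in the gene table but 27.6 and 8.80 estimated counts in the second table.

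The 11 genes listed for receptor assembly and modulation summed to 244 and 149 TPM, of which Ly6e, a widely expressed gene of the Ly6 family, gave 137 and 96.8 TPM (log2 -0.10), and the median gene had 1.6 and 0.950 TPM. Of 7 tested, 5 were lower in replicate 2, 1 higher and 1 not called (median -0.44), beside 24.6% lower and 28.5% higher of all tested genes. Tmem35a, which encodes the chaperone NACHO that several neuronal-type receptors need, stood at 61.55 and 24.7 TPM (log2 -0.90, -0.98 to -0.81). Ric3, which encodes a chaperone of the Chrna7 product, stood at 8.14 and 3.67 TPM (log2 -0.90, -1.07 to -0.74). Lynx1, which encodes a membrane protein that dampens nicotinic receptors, had 30.4 and 19.8 TPM (log2 -0.30, -0.37 to -0.22), and the related Lypd6 4.93 and 1.66 TPM (log2 -0.98, -1.24 to -0.74). Lypd1, another Ly6 family gene, was higher (55 and 64 counts, log2 0.71), and Ly6h was not called. Chromaffin cell markers had a median of -0.68 and adrenal cortex markers of -0.84, and the part of either tissue in these genes was not tested.

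Other cholinergic genes differed in direction. Of the muscarinic receptors, the G protein-coupled receptors for acetylcholine, Chrm1 (130 and 62 counts, log2 -0.57) and Chrm3 (120 and 54 counts, log2 -0.65) were lower and Chrm2 higher (16 and 30 counts, log2 1.38), with Chrm4 and Chrm5 too low to test. Summed over 5 genes they reached 1.87 and 1.09 TPM, below the neuronal-type nicotinic subunits. Chat, the acetylcholine-synthesising enzyme, had 0 counts in both libraries, and its vesicle and choline transporter genes Slc18a3 and Slc5a7 had 1 and 2 and 2 and 6 counts. Ache, the enzyme that ends the signal, stood at 3.09 and 2.18 TPM and was not called (log2 -0.27, adjusted p = 0.117, exact binomial test). Bche, another cholinesterase gene abundant in liver, was 4.81-fold higher in replicate 2 (4.34 to 5.35). Colq, which anchors the enzyme at the neuromuscular junction, had 88 and 7 counts and was 8.40-fold lower (4.17 to 22.9), with 199 exon bases shared with Gm49387 on the same strand, so its count is uncertain.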

How the data were processed

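Total RNA-seq of the adrenal gland was deposited as 3 tables per library, for 2 libraries of 1 group. Per the file headers, the authors deposited expected counts and TPM per gene and transcript, with each transcript's percent of its gene's TPM, and in a second transcript table estimated counts and TPM. The assembly is mm10 with GENCODE M21, per the text deposited with each sample. No source used here names the aligner or quantifier.

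Expected counts were rounded to whole numbers. Libraries held 37586172 and 33844950 counts, so that 3 counts, the floor used for a count of 0, are 7.98e-06% and 8.86e-06% of them. Log2 differences used TMM factors of edgeR 4.0.16 (R 4.3.3) and a prior count of 0.5. Genes outside the mitochondrial genome with a mean count of at least 20 were tested with a two-sided exact conditional binomial test (scipy 1.17.1), with Benjamini-Hochberg adjustment over all of them and calls at an adjusted p under 0.05. Intervals are exact 95% intervals and cover counting error only. The test was tested on simulated data of 16150 genes with counting noise only: 69% of genes changed 1.5-fold and 88% of those changed 3-fold were called in the right direction, and 7.65% of calls were false. With 1 group, no comparison of conditions was possible. Named genes are the 10 subunits, the genes of 18 lists and annotated neighbours or overlapping genes. The members and lists were chosen with earlier results of these data known. Alternatives included DESeq2 1.42.0 size factors, total-count and spike-in scaling, other minimum counts and the second transcript table.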

Additional observations from a re-analysis of the deposited data

How the results depend on the processing

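Of the alternative values for the main results, 51 were counted as unchanged, 17 moved and 1 reversed. Unchanged meant within the SD of the libraries for levels and ratios, and within a counting interval for the median difference. For the numbers of members called, 4 against 3 also counted as unchanged. Levels and ratios from a single library cannot lie beyond that SD, and other minimum counts leave the median as it was by construction. The 51 therefore overstate how stable the results are. The median difference of the tested neuronal-type subunits (-0.51) was -0.85 under total-count scaling, -0.78 under spike-in scaling, -0.90 as log2(TPM + 0.1) and -0.68 as log2(TPM + 1). The number of members lower in replicate 2 was 3, or 4 with Chrnb2 under total-count and spike-in scaling. The number of genes called was 8578, and 11671 and 11047 under those scalings. Rescaled to protein-coding genes, summed TPM averaged 37.9 for the neuronal and 3.36 for the muscle type. In the second transcript table, log2 ratios were 0.67 for Chrna3 to Chrnb4, -2.81 for Chrna5 to Chrna3, 0.97 for Chrna7 to Chrna3, -3.41 for Chrna1 to Chrnb1 (-5.37 from gene-table TPM) and -5.72 for Chrna3 to Th. With a pseudocount of 0.1 TPM, Chrna5 to Chrna3 was -3.11 and Chrna1 to Chrnb1 -2.95. From counts, which ignore length, they were -4.38 for Chrna5 to Chrna3, 0.069 for Chrna7 to Chrna3, -3.95 for Chrna1 to Chrnb1, -4.27 for Chrna3 to Th and 0.14 for Chrnb2 to Chrnb4, the reversal. The cause of these shifts was not tested apart from length. No paired analysis was possible because the labels give 1 group. Counts of 0 to 3 in the gene table set the limit for Chrna1, Chrnd, Chrng and Chrne.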
